A study of Mus musculus with 4 samples.

Results

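E-cadherin (Cdh1), its cytoplasmic partners alpha-catenin (Ctnna1), beta-catenin (Ctnnb1) and p120-catenin (Ctnnd1), and the simple keratins Krt8 and Krt18 were examined in mouse peritoneal macrophages. The 6 genes were taken by symbol from 16403 genes with a row in at least 1 of 4 RNA-seq libraries. Cdh1, Krt8 and Krt18 were chosen by their measured IL-4 to untreated ratios, which were above 1 in both genotypes, and the catenins were added as the partners of E-cadherin. IL-4 ratios of the 6 genes are therefore given as a description, with counting intervals and no test, while differences between genotypes were tested.

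The macrophages came from C57BL/6 mice and were drawn into the peritoneum by 4% thioglycolate over at least 4 days. The cells adhered for 4 h before culture in medium with 0.5% serum. They were wild-type (WT) or TIF1a-/- (KO), in which floxed Trim24, the gene for TIF1a, was deleted in myeloid cells by a Cre recombinase under the lysozyme M promoter, a promoter active in macrophages and granulocytes. Each genotype was left untreated or received IL-4 at 20 ng/mL for 6 h, giving 4 groups of 1 library each. The number of mice behind a library is not given in the sources used here. With no replicates, each test below compares libraries, not conditions. Fisher's exact and Wald tests cover counting error only. The fits over all 4 libraries also estimate a spread, from 1 residual degree of freedom, and tests at a preset coefficient of variation assume it.

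E-cadherin is a transmembrane protein that binds E-cadherin on a neighboring cell. Its tail holds p120-catenin, which keeps it at the membrane, and beta-catenin, which binds alpha-catenin and through it actin. Beta-catenin is also the co-activator of TCF/LEF transcription factors in Wnt signaling, apart from its place at junctions. Macrophages are known to gain E-cadherin during alternative activation by IL-4, a state linked to cell fusion. Krt8, a type II keratin, and Krt18, a type I keratin, pair with each other into the intermediate filaments of simple epithelia and of mesothelium, the lining of the peritoneal cavity from which these cells were washed.

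The 4 libraries held from 11026033 to 11250099 expected reads, and 3 reads corresponded to 0.267 to 0.272 CPM, the reads of a gene scaled to the library total. Trim24 was at 2.55, 1.48, 0.06 and 0.14 FPKM (fragments scaled to transcript length and library total) in WT untreated, WT IL-4, KO untreated and KO IL-4, and was lower in both KO libraries (log2 ratio fell by 4.05 untreated and by 2.72 with IL-4, Fisher's exact test, Benjamini-Hochberg adjusted p = 4.4e-44 and 9.9e-19). All 12 macrophage markers had reads in every library. With IL-4 Csf1r was called higher and Cd14 lower in both genotypes, and Lyz2, the lysozyme M gene that carries the Cre, was called lower in KO (log2 -1.12 untreated and -1.18 with IL-4).

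The positions below are on GRCm38. Cdh1 spans 106603350 to 106670247 on the plus strand of chromosome 8, Ctnnb1 120933400 to 120960507 on the plus strand of chromosome 9, and Ctnnd1 84587096 to 84658977 on the minus strand of chromosome 2. Krt8 (chromosome 15, 101996711 to 102004342, minus strand) and Krt18 (chromosome 15, 102028216 to 102032026, plus strand) are transcribed away from each other, with 23874 bases between their starts.

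RefSeq upstream sequences (GRCm38.p6) matched 4 of the 6 genes. The 250 bases before the annotated start, 5′ to 3′, are shown for the keratin pair, higher in the same libraries, and for Ctnnb1, the steadiest with IL-4 in WT. Capitals mark matches to CAGGTG (an E-box of the kind that Snail and Zeb repressors bind) or GGGCGG (a GC box), on either strand. No letters matched more than 1 motif.
Krt8 (chr15:102004343-102004592, minus strand): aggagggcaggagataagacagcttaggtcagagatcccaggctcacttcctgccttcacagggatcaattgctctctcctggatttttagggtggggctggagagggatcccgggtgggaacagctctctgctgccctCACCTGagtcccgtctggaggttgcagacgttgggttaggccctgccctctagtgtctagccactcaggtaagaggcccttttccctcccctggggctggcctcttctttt
Krt18 (chr15:102027966-102028215, plus strand): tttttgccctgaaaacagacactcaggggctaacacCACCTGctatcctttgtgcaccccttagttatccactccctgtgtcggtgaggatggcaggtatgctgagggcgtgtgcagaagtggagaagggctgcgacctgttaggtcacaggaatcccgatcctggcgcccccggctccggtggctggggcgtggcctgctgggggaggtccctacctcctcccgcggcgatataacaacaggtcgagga
Ctnnb1 (chr9:120933150-120933399, plus strand): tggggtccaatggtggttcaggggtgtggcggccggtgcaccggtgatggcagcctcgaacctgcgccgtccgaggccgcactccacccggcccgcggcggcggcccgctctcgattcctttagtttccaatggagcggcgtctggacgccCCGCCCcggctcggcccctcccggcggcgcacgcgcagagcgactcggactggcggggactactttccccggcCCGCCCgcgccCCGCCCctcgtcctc

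Each keratin sequence held 1 E-box, beginning 111 bases before the start of Krt8 and 214 bases before that of Krt18, and 17.2% of the 32851 mouse upstream windows of this length held at least 1. The Ctnnb1 window shown held 3 GC boxes, against a match in 32.7% of windows, and neither keratin window held one. The window of another annotated Ctnnb1 start, not shown, held 2 GC boxes and 1 TATAAA. The palindrome of STAT6 type, TTC and GAA with 4 free bases between them, was present in 5.85% of windows, the STAT form with 3 free bases in 7.02% and TATAAA in 12.4%, and none of these occurred in the 3 windows shown. The GC content was 58.0% for Krt8, 60.4% for Krt18 and 74.8% for Ctnnb1, with 3, 12 and 35 CpG dinucleotides, and the median window had 52.4% and 6. These matches describe letters and not bound sites.

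Cdh1 was at the limit of detection without IL-4 and at about 1 FPKM with it. The level was 0.02 FPKM (1 read) in WT untreated, 1.03 FPKM (52 reads) in WT IL-4, 0 in KO untreated and 1.25 FPKM (61.64 expected reads) in KO IL-4. Both IL-4 libraries were high and both untreated libraries were at or near 0. In WT the CPM ratio was 51.0, with a wide 95% counting interval of 8.76 to 2053 because the denominator was 1 read. In KO the IL-4 library was at least 20.7-fold higher, with the untreated library set at a floor of 3 reads (0.272 CPM). The exact counting interval of that ratio, which also covers the error of the IL-4 reads, ran upward from 16.3, and the whisker drawn for KO untreated is the Wilson limit of 0.348 CPM. In bulk RNA, more cells of a type and more RNA per cell cannot be told apart, for this gene and the keratins alike.

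Krt8 and Krt18 had reads in every library and were higher with IL-4 in both genotypes. Krt8 was at 1.01, 3.65, 0.50 and 1.91 FPKM (20, 74, 10 and 38 reads) in WT untreated, WT IL-4, KO untreated and KO IL-4. Krt18 was at 0.78, 5.05, 0.07 and 2.35 FPKM (12, 79, 1 and 36 reads) in the same order. For each keratin, WT IL-4 was the highest library, KO IL-4 the next and KO untreated the lowest. The IL-4 CPM ratio of Krt8 was 3.63 in WT (95% counting interval 2.19 to 6.28) and 3.80 in KO (1.86 to 8.55). That of Krt18 was 6.46 in WT (3.50 to 13.0) and 36.0 in KO (6.06 to 1461), the latter over 1 read.

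**Figure D1:**
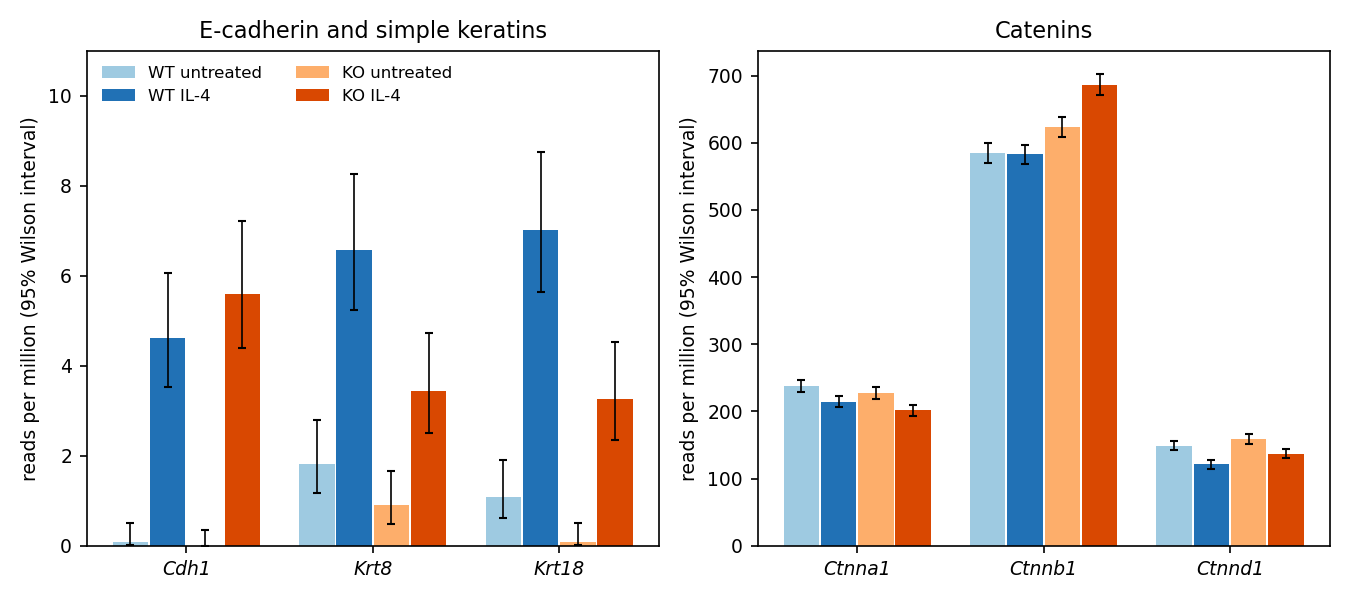
CPM in each of the 4 libraries for Cdh1, Krt8 and Krt18 (left) and for the 3 catenins (right); bars are 1 library each, whiskers are 95% Wilson intervals of counting error, and the panels have different scales. Cdh1, Krt8 and Krt18 were higher in both IL-4 libraries, from 3.27 to 7.02 CPM with IL-4 against at most 1.81 CPM without, and the catenins stayed between 121 and 686 CPM.

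The catenins were abundant in all 4 libraries and moved little. Ctnna1, on chromosome 18, was at 63.61, 57.24, 60.78 and 53.84 FPKM in WT untreated, WT IL-4, KO untreated and KO IL-4. Ctnnb1 was at 161.83, 161.13, 171.91 and 191.25 FPKM, above about 97% of the genes with reads in each library (96.9 to 97.5). Ctnnd1 was at 28.80, 23.45, 30.88 and 26.60 FPKM. Ctnna1 and Ctnnd1 were slightly lower in both IL-4 libraries, and Ctnnb1 was highest in KO IL-4. The IL-4 ratios on the log2(FPKM + 0.1) scale were -0.15 ± 0.04 (counting SE) in WT and -0.17 ± 0.04 in KO for Ctnna1. They were -0.01 ± 0.03 and 0.15 ± 0.02 for Ctnnb1, and -0.30 ± 0.05 and -0.21 ± 0.05 for Ctnnd1. The small Ctnnb1 value in WT was 0.06 once the length trend was removed and 0.03 with TMM scaling.

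On the same scale the IL-4 ratios were 3.24 and 3.75 for Cdh1, 1.76 and 1.74 for Krt8, and 2.55 and 3.85 for Krt18, in WT and KO. The choice of genes had fixed that 3 of the 6 were above 1.5-fold in both genotypes, so nothing is read from that count. For scale, 3.56% of 14960 genes tested in both genotypes were called higher with IL-4 in both and 2.91% lower in both, and 12.8% were called in either direction in WT and 9.33% in KO. The rise left Cdh1 far below its partners, at a Ctnnb1 to Cdh1 FPKM ratio of 156 in WT IL-4 and 153 in KO IL-4. The 3 catenins together were at 254, 242, 264 and 272 FPKM in the 4 libraries.

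**Figure D2:**
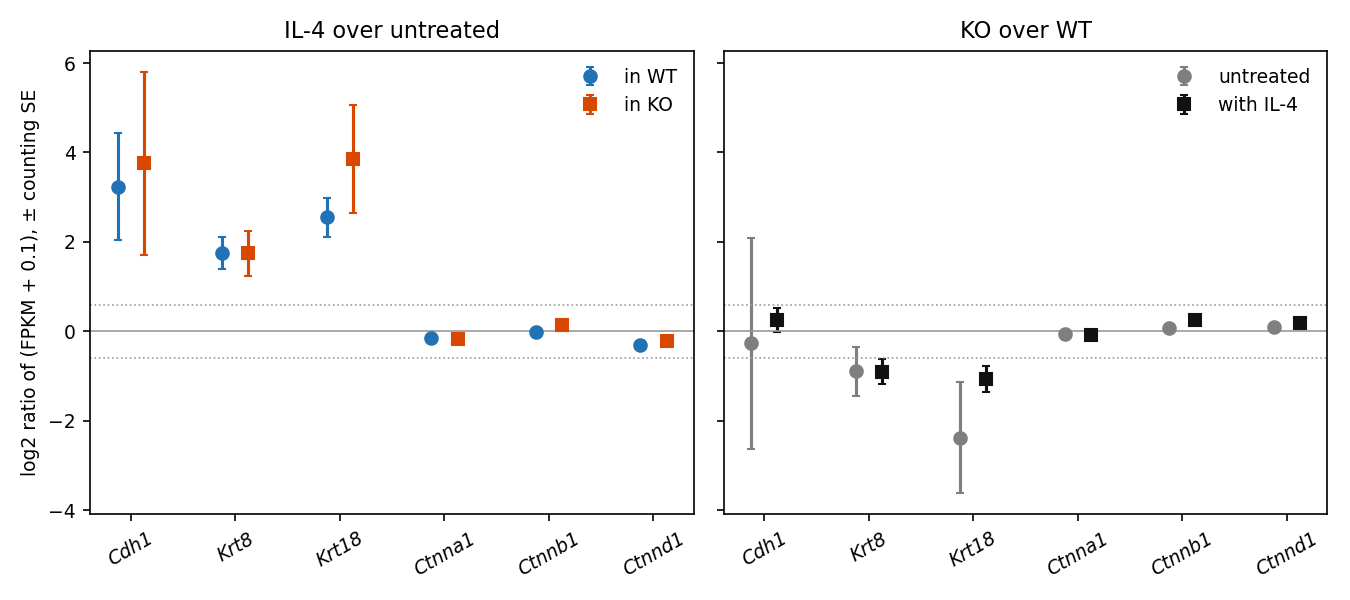
Log2 ratios of (FPKM + 0.1) for the 6 genes, IL-4 over untreated within each genotype (left) and KO over WT within each treatment (right); whiskers are 1 counting SE, the solid line is no difference and dotted lines mark 1.5-fold. Cdh1, Krt8 and Krt18 lie above the upper dotted line on the left in both genotypes, and with IL-4 the 2 keratins lie below the lower dotted line on the right while Cdh1 does not.

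To see whether loss of Trim24 went with a change in these genes, KO was compared with WT within each treatment. With IL-4, Krt8 and Krt18 were lower in KO and Cdh1 was not. The log2 ratio fell by 0.90 ± 0.29 (counting SE) for Krt8, with Fisher's exact test and an adjusted p = 0.0086. It fell by 1.07 ± 0.29 for Krt18, with an adjusted p = 0.0011 by the same Fisher's exact test. As CPM ratios these were 0.524 (95% counting interval 0.345 to 0.785) and 0.465 (0.304 to 0.698). The 2 keratins were thus 2 of 6 members called lower, where 0.764% of the 15573 genes tested were called lower, 3.04% higher and 3.81% in either direction. Both calls were lost (adjusted p = 1.0) when the libraries were assumed to vary biologically by a coefficient of 0.2, and Krt8 was under 2-fold.

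Without IL-4 no member was called different between genotypes, where 1.58% of 15623 genes were (0.742% lower and 0.839% higher). Krt8 was at 10 reads in KO against 20 in WT, a CPM ratio of 0.500 (95% counting interval 0.209 to 1.12, Fisher's exact test, adjusted p = 0.45). Krt18 was at 1 read against 12, a CPM ratio of 0.0834 (0.00195 to 0.564, Fisher's exact test, adjusted p = 0.051). With testing limited to genes averaging at least 1 FPKM, Krt18 was called lower in KO (Fisher's exact test, adjusted p = 0.037). A fit over all 4 libraries with additive genotype and treatment terms, which leaves 1 residual degree of freedom, gave a genotype log2 effect of -0.95 ± 0.29 for Krt8 and -1.34 ± 0.36 for Krt18. Neither passed in that fit (edgeR quasi-likelihood test, adjusted p = 0.13 and 0.093), where 1.66% of 11791 genes did.

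The Cdh1 level with IL-4 differed between genotypes by a CPM ratio of 1.22, with a 95% counting interval of 0.828 to 1.79 (Fisher's exact test, adjusted p = 0.59). The additive fit gave 0.22 ± 0.36 (edgeR, adjusted p = 0.84).

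The catenins differed between genotypes by less than 1.5-fold throughout, and none was called. Ctnnb1 was higher in KO by 0.09 ± 0.03 untreated (Fisher's exact test, adjusted p = 0.0051) and by 0.25 ± 0.02 with IL-4 (adjusted p = 1.5e-20). In the additive fit its genotype effect was 0.17 ± 0.09 (edgeR, adjusted p = 0.41). Ctnna1 differed by -0.07 and -0.09 (Fisher's exact test, adjusted p = 0.46 and 0.13). Ctnnd1 was at 0.10 untreated and 0.18 with IL-4 (Fisher's exact test, adjusted p = 0.30 and 0.0070), and the latter became -0.02 when the trend of ratios with transcript length was removed.

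The size of the IL-4 response was then compared between genotypes, as KO minus WT on log2 counts. For Cdh1, with 1 and 0 untreated reads, the value would be set by the number added to the counts and is not given. The difference was 0.04 for Krt8 (95% counting interval -1.17 to 1.25) and 1.96 for Krt18 (-0.54 to 4.47, and 1.16 with 2 in place of 0.5 added to counts), and neither passed (Wald test on counting error, adjusted p = 0.98 and 0.38), where 2.88% of 11664 genes did. These intervals are wide because the untreated libraries held between 1 and 20 reads of each keratin. Among the catenins the difference was 0.14 for Ctnnb1 (0.07 to 0.21, Wald test, adjusted p = 8.4e-04), under 1.5-fold. Once the length trend was removed, this Ctnnb1 difference was 0.08 and did not pass (Wald test, adjusted p = 0.21). The difference was -0.02 for Ctnna1 (-0.14 to 0.09) and 0.08 for Ctnnd1 (-0.06 to 0.22), with the trend left in.

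Because mesothelial cells of the peritoneal lining also make Krt8 and Krt18, a list of 15 mesothelial markers was set beside the members. Reads were present for 13 of them, and Calb2 and Muc16 were at 0 in all 4 libraries. The summed list held 2395, 2762, 2119 and 2312 reads in WT untreated, WT IL-4, KO untreated and KO IL-4, most of it from Pdpn, at 108.05, 122.65, 99.47 and 108.12 FPKM, a gene that inflammatory macrophages also express. Of 13 tested with IL-4 in WT, 2 were called higher and 3 lower (the background was 4.91% higher and 7.89% lower). In KO 2 were higher and none lower (background 5.29% and 4.04%). The one called higher in both was Lrrn4, with 32, 68, 12 and 29 reads.

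Without Pdpn and the keratins Krt7 and Krt19, a subset chosen after its values were seen, 12 mesothelial markers remained. This leaves out Krt7 and Krt19, each called higher with IL-4 in 1 genotype. The 12 markers summed to 182 reads in WT untreated and 182 in WT IL-4, and 94 in KO untreated and 97 in KO IL-4. The keratin pair had 32, 153, 11 and 74 reads in those libraries. With IL-4 the marker sum was thus 0.981 times the untreated level in WT and 1.03 times in KO, while the keratin pair was 4.69 and 6.73 times its untreated level. The level sum in WT held markers that moved both ways. Lrrn4 went from 32 to 68 reads and was called higher. Msln (12 to 2 reads), Bnc1 (19 to 6) and Cldn15 (6 to 0) were called lower. With the length trend removed, 2 markers were lower in WT. With Pdpn alone left out, the sum of 14 was 1.08 times the untreated level in WT and 1.20 times in KO. There were 0.176 keratin reads per marker read in WT untreated and 0.117 in KO untreated, against 0.841 and 0.763 with IL-4. Between genotypes the marker sum and the keratin pair were both lower in KO. The KO level was 0.517 of WT untreated and 0.544 with IL-4 for the markers, and 0.344 and 0.493 for the keratins. The part of mesothelial RNA in the genotype difference of the keratins was not tested.

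**Figure D3:**
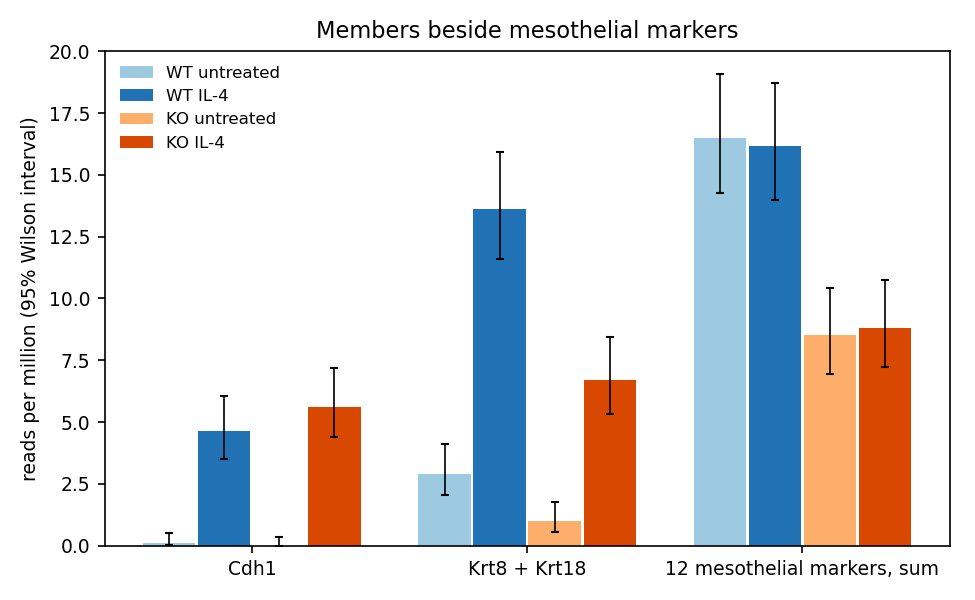
CPM of Cdh1, of Krt8 and Krt18 together, and of 12 mesothelial markers summed (Pdpn, Krt7 and Krt19 left out), in the 4 libraries; whiskers are 95% Wilson intervals of counting error. The marker sum was 16.5 and 16.2 CPM in WT without and with IL-4 and 8.52 and 8.80 CPM in KO, while Cdh1 and the keratins differed with IL-4. Single markers within the sum were called in both directions with IL-4 in WT.

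Single mesothelial markers showed the same order between genotypes in most but not all cases. Wt1, a transcription factor of mesothelium, had 68, 65, 31 and 23 reads and was called lower in KO both untreated and with IL-4 (log2 -1.06 and -1.35, Fisher's exact test, adjusted p = 0.0064 and 1.1e-04). Lrrn4 was lower in KO with IL-4 (log2 -1.11, Fisher's exact test, adjusted p = 9.7e-04). Msln, mesothelin, went the other way with IL-4, with 2 reads in WT and 13 in KO (log2 1.85, Fisher's exact test, adjusted p = 0.023). Upk3b had 12, 7, 13 and 3 reads and was not called. In all, 3 of 13 markers tested (Wt1, Lrrn4 and the keratin Krt7) were lower and 1 higher in KO with IL-4 (background 0.764% and 3.04%). Untreated, 1 was lower (background 0.742%).

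No other keratin was called with IL-4 in both genotypes. Of 27 others, 21 were at 0 in every library, among them the basal-layer keratin Krt5. Krt19, a simple-epithelial type I keratin, had 22, 25, 9 and 25 reads, and was called higher with IL-4 in KO (log2 1.26 in KO, Fisher's exact test, adjusted p = 0.027, and 0.19 in WT). Krt7, a simple-epithelial type II keratin, had 3, 21, 3 and 5 reads and was called higher with IL-4 in WT (log2 2.23, Fisher's exact test, adjusted p = 0.0013). Like Krt8 and Krt18, Krt7 was called lower in KO than in WT with IL-4 (log2 -1.74, Fisher's exact test, adjusted p = 0.016). The difference between genotypes in the IL-4 response was not tested for Krt7, whose mean count was under 10, and is not given for Krt19. Krt8 and Krt18 made up 23.3% of keratin reads in WT untreated and 60.9% in WT IL-4, 12.2% in KO untreated and 47.5% in KO IL-4, while the other keratins together had 105, 98, 79 and 82 reads. The Krt8 to Krt18 FPKM ratio was 1.29, 0.72, 7.14 and 0.81, the third over 1 read of Krt18.

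Epithelial markers were low, with none averaging 1 FPKM, and 15 had reads in at least 1 library. Of 20, 5 were at 0 throughout (Esrp1, Grhl2, Grhl3, Cldn4 and Marveld3), and Epcam, the epithelial adhesion molecule, had 1 read in WT IL-4 and none elsewhere. The list summed to 81, 122, 62 and 96 reads, in the same order of libraries. The sum was higher with IL-4 in both genotypes, with most of the added reads from Spint1 alone. The 1 epithelial gene called with IL-4 was Spint1, a membrane inhibitor of serine proteases, with 5, 36, 2 and 27 reads (log2 2.32 in WT and 2.70 in KO, Fisher's exact test, adjusted p = 5.5e-06 and 8.0e-06). Its mean was under 1 FPKM, and it was singled out after its values were seen. Among all genes tested in both genotypes, 3.56% were called higher in both.

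Among 22 other classical and related cadherins, 10 were at 0, and none was called with IL-4 in both genotypes. Cdh11, a cadherin of mesenchymal cells, was at 1.87, 2.39, 1.11 and 1.79 FPKM, and Cdh2, N-cadherin, at 1.51, 1.61, 0.39 and 0.96. Both were called higher with IL-4 in KO and in KO untreated both were lower than in WT. Cdh1 was 0.43% of summed cadherin FPKM in WT untreated, 16.4% in WT IL-4, 0 in KO untreated and 25.7% in KO IL-4. It rose from rank 7 to 3 in WT and from 10 to 2 in KO. The untreated ranks have little meaning, since Cdh1 had 1 read in WT and was tied at 0 with other cadherins in KO. Cdh3, P-cadherin, whose gene lies next to Cdh1, had 39, 44, 19 and 18 reads. It was not called with IL-4, and Tango6, on the other side of Cdh1, was at 1.12, 1.20, 1.14 and 1.30 FPKM. Around the keratin pair, Krt4, Krt78 and Krt79 were at 0.

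Of 22 further catenins and junction partners, 19 were tested. With IL-4 in WT 6 were called lower and none higher (background 7.89% and 4.91%). In KO 2 were lower and 1 higher (background 4.04% and 5.29%). For those averaging 1 FPKM or more, the median log2 ratios were -0.35 in WT and -0.30 in KO. For all genes at that level they were -0.01 and 0.01. The median of all 19 in WT was -0.27, and -0.055 with the length trend removed. Pkp4, a p120-family protein of junctions, was at 9.24, 3.62, 10.44 and 5.37 FPKM (log2 -1.33 in WT and -0.95 in KO, Fisher's exact test, adjusted p = 1.7e-28 and 1.3e-18). Vcl, vinculin, which joins alpha-catenin to actin, was at 17.02, 9.96, 18.08 and 11.33 FPKM (log2 -0.77 and -0.67, Fisher's exact test, adjusted p = 3.0e-24 and 3.5e-20). Jup, plakoglobin, the closest relative of beta-catenin, was at 6.42, 3.81, 6.63 and 4.52 FPKM and was called lower in WT. With the length trend removed, 3 of the 19 were lower and 1 higher in WT, and the WT calls of Vcl (log2 -0.54) and Jup (-0.53) ended. None of these partners was higher in both genotypes.

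Of 20 desmosome and tight junction genes, 15 were tested in WT and 17 in KO. With IL-4, 1 was called higher in both genotypes and 1 lower (background 3.56% and 2.91%). Pkp2, plakophilin 2, a desmosomal plaque protein, was higher with IL-4 in both, with 11, 50, 8 and 44 reads (log2 1.89 and 2.07, Fisher's exact test, adjusted p = 3.4e-06 and 2.3e-06). Cgn, cingulin of tight junctions, was lower in both, with 28, 7, 28 and 4 reads (log2 -1.45 and -1.71, Fisher's exact test, adjusted p = 0.0013 and 1.5e-04). Dsp, desmoplakin, which anchors keratin filaments to desmosomes, had at most 2 reads. Pkp2 and Cgn had means under 1 FPKM and were singled out after their values were seen. Of 19 other intermediate filament genes and linkers, Lmna, a nuclear lamin, was higher in both genotypes (90.82, 160.82, 93.48 and 148.48 FPKM).

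**Figure D4:**
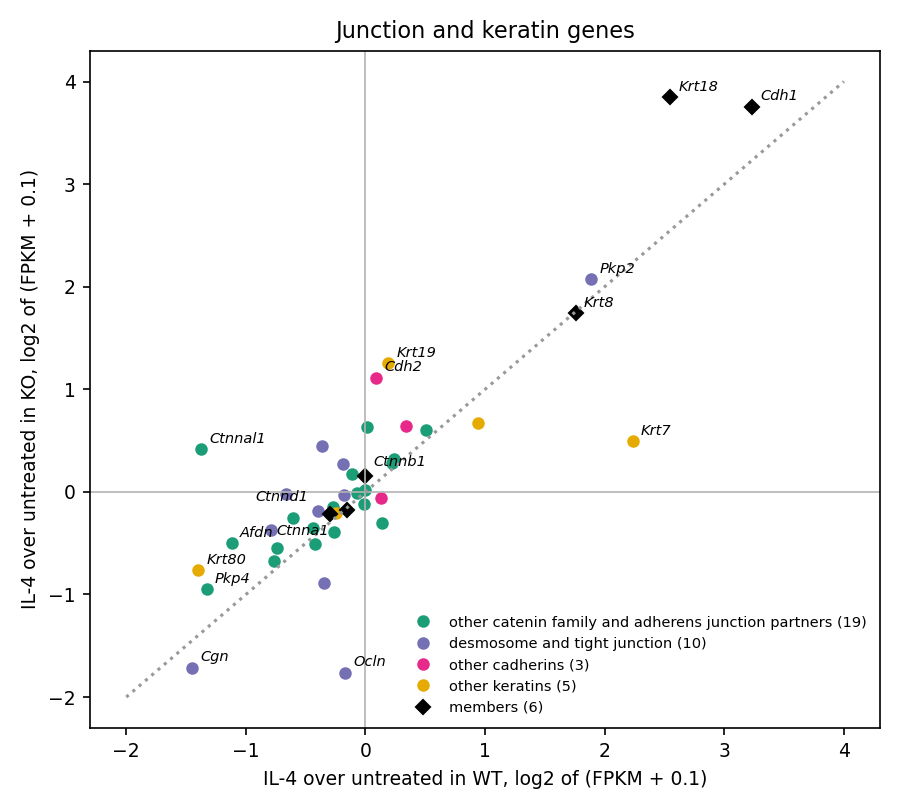
IL-4 over untreated in WT (horizontal) against KO (vertical), as log2 of (FPKM + 0.1), for junction and keratin genes with a mean of at least 5 reads; the number plotted per list is in the legend, the dotted line is equal response, and genes beyond 1 in either genotype are named along with the members. Cdh1, Krt8, Krt18 and Pkp2 lie apart at the upper right, and the 3 catenins lie near the origin among most other junction genes. The ratios share no library between axes.

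Genes known to act on E-cadherin or beta-catenin were also read. Of 17 transcriptional repressors and sheddases of E-cadherin, 2 were lower with IL-4 in both genotypes and none was higher (background 2.91% and 3.56%). They were Klf8, a repressor of Cdh1 (1.13, 0.61, 1.57 and 0.97 FPKM), and Ctbp2, a corepressor (15.76, 9.85, 14.23 and 9.41 FPKM). Zeb2, a direct Cdh1 repressor, was at 48.06, 52.24, 49.33 and 60.73 FPKM and was not called. With the length trend removed Ctbp2 was still lower in both, Klf8 was not called in either, and Zeb2 was called higher in WT (log2 0.60). Snai1 was under 0.5 FPKM in each library. The beta-catenin destruction complex and its TCF partners were read as 17 genes. With IL-4, 1 was higher in both genotypes and 1 lower (background 3.56% and 2.91%). Tcf7l2 was higher (1.44, 2.85, 1.14 and 2.78 FPKM) and Bcl9, a co-activator, lower (4.12, 2.30, 4.85 and 3.10 FPKM). With the length trend removed Bcl9 was under 1.5-fold in both (log2 -0.51 and -0.56). Of 18 textbook targets of beta-catenin, 3 were higher in both (background 3.56%). They were Myc (log2 1.57 and 1.96), Cd44 (1.02 and 0.99) and Apcdd1 (1.07 and 0.89). Axin2 (3, 5, 5 and 7 reads) and Lef1 (1, 3, 1 and 1 reads) were near the floor and not called. Sp5, Wif1 and Ascl2 were at 0 in every library. Of 6 receptors and ligands of E-cadherin, Igf1r was lower in WT (log2 -0.77, and -0.15 and not called with the length trend removed) and Met higher in KO, and none was called in both.

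Of 21 genes of macrophage fusion, a process in which E-cadherin takes part, 7 were higher and 2 lower with IL-4 in each genotype, and 6 were higher in both (background 4.91% higher and 7.89% lower in WT, 5.29% and 4.04% in KO, and 3.56% higher in both). Ccl2, a chemokine, was at 4.51, 22.45, 2.66 and 11.47 FPKM (log2 2.29 and 2.07). Cd44, also among the targets above, was at 56.00, 113.48, 55.77 and 111.13 FPKM, and Cd47, a ligand of SIRPa, at 32.79, 66.60, 32.59 and 63.18 FPKM. Ocstamp, which is needed for fusion, had no reads untreated and 19 and 16 reads with IL-4 in WT and KO. Its mean was below 1 FPKM, so the naming rule did not cover it. It was singled out after its values were seen. Cd200 was called lower in both genotypes (log2 -0.70 and -0.59).

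The genes nearest to Cdh1 over the 4 libraries, by distance between mean-centered log2(FPKM + 0.1) values, were Olfm1 (0.20), Dab2 (0.33), Ier3 (0.36), Rab3il1 (0.47) and Serpina3g (0.49), of 7464 that averaged 5 FPKM or more. Olfm1, for example, was at 2.74, 29.6, 2.35 and 29.17 FPKM. The nearest to Krt8 were Ifi202b (0.24), Uck2 (0.40) and Myc (0.41), and those to Krt18 were Ccl7 (1.39), Ceacam19 (1.44) and Ccl2 (1.54). Ccl7 was at 0.91, 16.14, 0.61 and 6.72 FPKM. Krt8 and Krt18 lay 1.79 apart, as far as Cdh1 from Krt18 (1.79), and the catenins lay 0.24 to 0.35 from each other. Distances from Cdh1 and Krt18 depend on the 0.1 added, since in KO untreated they had 0 and 1 read. No likeness or unlikeness of the keratin patterns is read from them.

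Markers of other cell types also moved between libraries. Of 12 stromal markers, 6 were lower in KO untreated, and with IL-4 4 were higher and 1 lower in KO, where the background was 0.742% lower untreated, and 3.04% higher and 0.764% lower with IL-4. With the length trend removed, the IL-4 counts were 3 higher and none lower. The collagen and decorin genes Col1a1, Col1a2, Col3a1 and Dcn summed to 2014, 1735, 970 and 2185 reads. Fn1, fibronectin, which macrophages also make, was higher with IL-4 in both genotypes (56.08, 213.22, 46.96 and 286.18 FPKM). Postn, also called higher in both, was at 0.37, 0.85, 0.49 and 5.05 FPKM (log2 1.02 in WT and 3.13 in KO). With IL-4 in WT, 2 of the 12 were called higher and 3 lower (background 4.91% and 7.89%). In KO 5 were higher and none lower (background 5.29% and 4.04%). With the length trend removed, 1 was lower in WT. Of 10 neutrophil markers 5 were at 0, and the list summed to 1953, 3449, 1893 and 3427 reads through Csf3r, which was called higher with IL-4 in both genotypes (log2 0.88 and 0.90). Markers of B cells, T and NK cells, mast cells and eosinophils, and dendritic cells each summed to between 52 and 132 reads in every library. Mast cell and eosinophil markers had 69, 52, 125 and 84 reads, with Cma1, a mast cell protease, at 9, 13, 37 and 13 and called higher in KO untreated (log2 1.91, Fisher's exact test, adjusted p = 8.6e-04). In KO untreated the stromal and mesothelial sums were both lower than in WT untreated, and in KO IL-4 the mesothelial sum was lower and the stromal one higher than in WT IL-4. The part of stromal RNA in the values of Cdh1, Krt8 and Krt18 was not tested.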

How the data were processed

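Total RNA of 4 libraries was sequenced on an Illumina HiSeq. The authors used Bowtie for alignment to GRCm38/mm10 and RSEM for gene quantification, whose versions and strand setting are not given in the sources used here. The deposited expected count is the number of reads RSEM assigned to a gene. The deposited FPKM, as the authors computed it, divides this by transcript length and library total. Genes without a row were set to 0. Krt8 and Krt18 counts were whole in every library, though 22.2% to 22.8% of all listed values were not. RefSeq lists a Krt8 pseudogene, which had no row.

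Groups followed the labels. The members and 20 gene lists were chosen with earlier results of these data known. Counts were rounded. For each gene, its reads in a pair of libraries were tested against the library totals (Fisher's exact test, two-sided), with Benjamini-Hochberg adjustment over genes with a read. A call needed a fold above 1.5 and an adjusted p below 0.05, the fold being on log2(FPKM + 0.1), which understates changes of low genes. Ratios of CPM have exact counting intervals. Differences of IL-4 responses used log2 counts plus 0.5 and a Wald test, for genes with a mean count of at least 10. Additive fits used edgeR 4.0.16 in R 4.3.3 with TMM scaling, and DESeq2 1.42.0 as an alternative. Other steps ran in Python 3.11.15 with scipy 1.17.1. Scripts' tests were checked on simulated data. Intervals cover counting error only.

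Genes were named by rule: the members, Trim24, mesothelial markers, up to 3 genes a list called in 1 direction in WT and KO and averaging 1 FPKM or more, and the nearest patterns among genes of at least 5 FPKM. Other list genes named in the text fell outside this rule. Upstream sequences came from RefSeq. The settings varied were the pseudocount (0.01 and 1), a minimum mean of 1 FPKM, TMM-scaled CPM, a fold of 2, removal of the length trend, edgeR's exact test at a preset biological coefficient of variation (0.2 or 0.4), 2 added to counts, DESeq2, no filter and upper-quartile scaling. Counts of list genes without the length trend, and marker sums without Pdpn, Krt7 and Krt19, were added after the data were seen.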

Additional observations from a re-analysis of the deposited data

How the results depend on the processing

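No paired analysis was possible because each group holds 1 library and so no replicate numbers are shared beyond the 1 (the additive fit compares genotypes within treatments), and no library could be left out. The count of genes called was 1996 for IL-4 in WT, 1468 for IL-4 in KO, 247 between untreated genotypes and 593 between genotypes with IL-4. With a fold of 2 these were 861, 710, 127 and 171. With the biological coefficient of variation preset at 0.2 they were 258, 272, 15 and 21, and with 0.4 they were 45, 33, 7 and 11. A pseudocount of 1 gave 155 and 321 for the 2 genotype comparisons. Removing the length trend gave 318 between genotypes with IL-4 (215 higher and 103 lower, against 474 and 119), and in WT with IL-4 814 higher and 813 lower against 766 and 1230. It also gave 107 genes with a different IL-4 response, against 336. The additive fit called 196 genes, against 65 by DESeq2, 24 with all genes and 494 with upper-quartile scaling, where Krt8 and Krt18 passed (edgeR, adjusted p = 0.036 and 0.0029), against 1.0 and 0.92 by DESeq2 and 0.47 and 0.49 with all genes. Directions turned in 5 cases, none past a threshold: the IL-4 ratio of Ctnnb1 in WT (0.0323 with TMM-scaled CPM and 0.0599 without the length trend), Ctnnd1 between genotypes with IL-4 (-0.021) and its response difference (-0.10) without the length trend, the Krt8 response difference with 2 added to counts (-0.0233), and the Cdh1 genotype effect in DESeq2 (-0.0438). The causes were not tested. Every IL-4 log2 ratio of Cdh1, Krt8 and Krt18 stayed above 0.95 under the pseudocounts and scalings tried, where it spanned 0.99 to 5.12 for Cdh1 in WT and 1.17 to 6.98 in KO. Depth limits the untreated libraries, where Cdh1 and Krt18 rest on 0 to 12 reads.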
